A study of Mus musculus with 6 samples.

Results

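Iron handling and ferroptosis genes were examined in bulk RNA-seq of 6 MC38 tumors, because GB2 carries artesunate, an endoperoxide drug that is activated by iron and heme. The set held 10 genes chosen by name: Fth1, Ftl1, Tfrc, Slc40a1, Slc11a1, Slc11a2, Hmox1, Gpx4, Slc7a11 and Acsl4. The table held 33965 genes, of which 19602 were expressed enough to be tested, and all 10 members were among those tested. MC38 cells are an established line from a colon carcinoma of the mouse, and they were grown as tumors under the skin of C57BL/6 mice, which were female per the methods of the study. The PBS group held 3 tumors of mice given phosphate-buffered saline, which the study calls untreated. The GB2 group held 3 tumors of mice given GB2, a prodrug in which a glutathione-responsive disulfide joins artesunate to the STING agonist MSA-2. The labels give no engineered allele for the mice or the cells, and they give neither the dose nor the time of collection of the sequenced tumors. No sequenced tumor received artesunate or MSA-2 alone, so the parts of GB2 cannot be told apart.

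Cells take up iron bound to transferrin through the transferrin receptor, encoded by Tfrc, and carry it out of endosomes through the divalent metal transporter encoded by Slc11a2. Surplus iron is held in shells of ferritin made of heavy and light chains, encoded by Fth1 and Ftl1, or leaves the cell through ferroportin, encoded by Slc40a1. Ferroptosis is a form of cell death driven by iron-dependent peroxidation of membrane lipids. Acsl4 supplies the polyunsaturated lipids that are peroxidized, Slc7a11 imports the cystine needed for glutathione, and Gpx4 uses glutathione to reduce the lipid peroxides.

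Several of these transcripts carry an iron-responsive element, a short hairpin that iron regulatory proteins bind when iron is scarce. Bound in a 5′ UTR, they block translation, and bound in the 3′ UTR of Tfrc, they keep the mRNA from decay. The element matters for reading RNA levels, since a 5′ element acts on protein output and not on the amount of mRNA. The UTRs of GENCODE M21 coding transcripts (build GRCm38) were searched on the transcript strand for a bulged C, 5 paired bases, the loop CAGTGN and the 5 matching bases, with G-T pairs allowed. The pattern was found in 160 of 21901 genes (0.731%) and in 4 of the 10 members, with 7 sites in all. In the sequences below, shown because the members differ in whether and in which UTR they carry the pattern, the capitals mark the loop. The Fth1 site lies in the 5′ UTR at chr19:9982732-9982760 on the plus strand, the Ftl1 site in the 5′ UTR at chr7:45459779-45459807 on the minus strand, and the Slc40a1 site in the 5′ UTR at chr1:45925465-45925493 on the minus strand. The 4 Tfrc sites lie in exon 19, in the 3′ UTR, on the plus strand at chr16:32631219-32631247, chr16:32631598-32631626, chr16:32631663-32631691 and chr16:32631710-32631738.
Fth1: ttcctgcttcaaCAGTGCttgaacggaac
Ftl1: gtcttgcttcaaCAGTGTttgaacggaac
Slc40a1: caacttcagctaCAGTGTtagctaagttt
Tfrc site 1: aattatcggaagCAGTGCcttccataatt
Tfrc site 2: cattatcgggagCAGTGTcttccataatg
Tfrc site 3: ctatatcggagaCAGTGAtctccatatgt
Tfrc site 4: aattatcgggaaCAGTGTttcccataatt
The 6 other members had no match to these letters in this annotation, which says nothing about other forms of the element.

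Each tumor gave between 64764405 and 83690056 total counts, and an excess of low values at 4 makes it likely that about 4 counts stand for 1 read pair, although the counting setting is not given in the sources used here. PBS tumor 1 stood apart from the rest, at -122 on the first principal component (34% of the variance) against -1.41 to 44.4 for the other 5 tumors. Values below are CPM, counts relative to the library total, scaled by TMM, a normalization for library composition. Levels of different genes are compared as FPKM, which is also divided by transcript length. The exception is a gap in log2 CPM between Slc11a1 and the macrophage markers, which is read only between tumors. The tumors were checked against lists of cell type markers. The 9 tumor epithelium markers summed to 6.97 to 13.2 CPM per tumor, and Krt19, Krt7 and Cdx2 were too low to test. The 6 proliferation markers summed to 1679 to 2621 CPM per tumor. A bulk tumor cannot tell fewer cells of a type from less RNA per cell.

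In the edgeR quasi-likelihood test with Benjamini-Hochberg adjustment, 0 of 10 members passed both thresholds for a call (an adjusted p under 0.05, together with at least a 2-fold change), as did 0 of all 19602 genes (0%). The adjusted p of the members ran from 0.307 to 0.971, against a smallest value of 0.166 over all genes. At an unadjusted p under 0.05 there were 2 members, Slc11a1, higher in GB2 tumors, and Hmox1, lower in them. Of all tested genes, 1360 (6.94%) passed that rule, 4.69% higher and 2.24% lower. The same 2 members were those whose GB2 and PBS tumors did not overlap, a pattern seen in 15.3% of all tested genes, 8.61% higher and 6.68% lower. The median log2 fold change of the 10 members was -0.01, with 5 higher and 5 lower, and that of all tested genes was -0.02. By the sign of the log2 fold change, 48.3% of all tested genes were higher. DESeq2 on the same counts called 1 member, Slc11a1, and 380 of 31805 genes with a p-value (1.19%). Only 21963 of these genes were given an adjusted p and could be called.

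**Figure D1:**
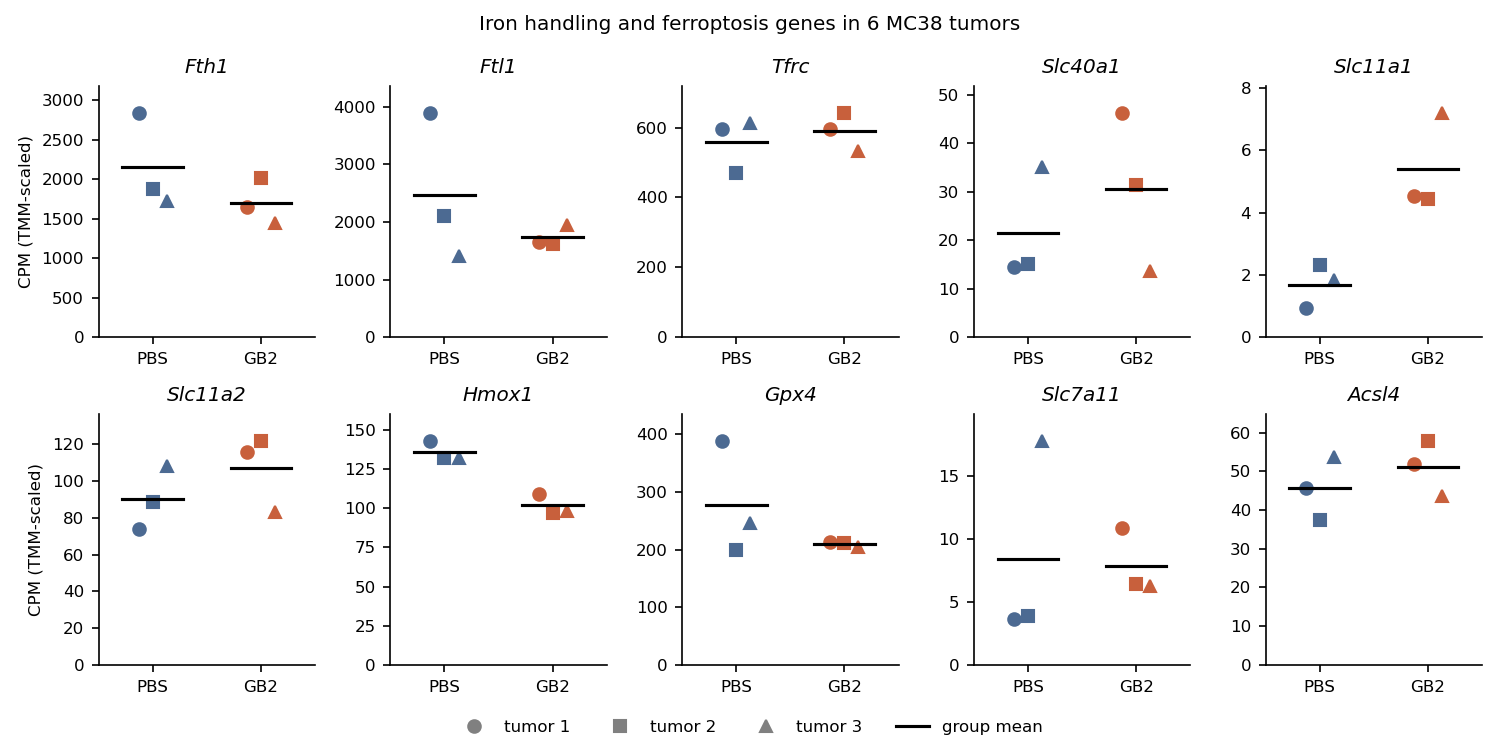
CPM of the 10 genes in each of the 3 PBS (blue) and 3 GB2 (orange) tumors, with the tumor number as the symbol and the group mean as a bar, each panel on its own axis from 0. The groups are separate only for Slc11a1 (0.947 to 2.31 against 4.42 to 7.2 CPM) and Hmox1 (132 to 143 against 97.1 to 109 CPM).

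Slc11a1 encodes NRAMP1, a transporter of divalent metals in the phagosomes and lysosomes of macrophages and neutrophils (chr1:74414354-74425211 in the positions of the table). The values below are RNA levels, and neither the protein nor its transport of metal was measured. It stood at 0.947, 2.31 and 1.82 CPM in PBS tumors 1 to 3 and at 4.54, 4.42 and 7.2 CPM in GB2 tumors 1 to 3. Every GB2 tumor was above every PBS tumor, and the lowest value, in PBS tumor 1, rested on 56 counts. The edgeR log2 fold change was 1.67 (SE 0.41, n = 3 and 3, unadjusted p = 0.00412, adjusted p = 0.307), a 3.17-fold higher level with a 95% interval of 1.64 to 6.15. With DESeq2 the log2 fold change was 1.68 and the adjusted p was 0.00726, and with DESeq2 on counts divided by 4 the adjusted p was 0.0188. Across the 11 alternatives other than leaving out a tumor, the adjusted p of Slc11a1 ran from 0.00726 to 0.704. Leaving out any tumor in turn gave log2 fold changes of 1.39 to 1.96, and the unadjusted p was under 0.05 in each of these fits. Slc11a1 was scarce in the tumors, with a mean of 0.918 FPKM and rank 12637 by mean FPKM.

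Macrophage markers moved with Slc11a1. All 10 markers on the list were higher in GB2 tumors, each at an unadjusted p under 0.05 and with no overlap between the groups. Among all tested genes, 4.69% were higher at that p and 8.61% were higher without overlap. The median log2 fold change of the 10 markers was 1.94. Their summed level was 65.2 to 92.3 CPM in PBS tumors and 254 to 354 CPM in GB2 tumors, and no marker was at 0 in every tumor. Of 5 tested neutrophil markers, 4 were higher at an unadjusted p under 0.05 without overlap, and Retnlg was not, with sums of 2.07 to 4.44 CPM against 9.14 to 12 CPM, although the defining gene Ly6g was at 0 in all 6 tumors. The gap between log2 CPM of Slc11a1 and the mean log2 CPM of the macrophage list was -2.46, -1.27 and -0.85 in PBS tumors and -1.59, -1.70 and -1.69 in GB2 tumors. Its group means differed by -0.13 (exact two-sided permutation p = 0.9, where the smallest p that 3 tumors against 3 allow is 0.1), less than the SD of 0.84 between PBS tumors. That spread rested on PBS tumor 1, and without it the difference was -0.60, with every GB2 tumor below both other PBS tumors (a value with no test). Fibroblast markers (295 to 525 against 979 to 1350 CPM, 7 of 7 higher) and endothelial markers (68.8 to 80.7 against 133 to 149 CPM, 5 of 6 higher) also moved with the group. The sums of skeletal muscle markers (68.8 to 121 CPM in PBS and up to 166 CPM in GB2 tumors, 4 of 4 higher, 2 at an unadjusted p under 0.05) and of tumor epithelium markers (6.97 to 8.13 against 8.17 to 13.2 CPM, 6 of 6 tested higher, 1 at that p) did not overlap either. The part of all these cell types in the Slc11a1 difference was not tested.

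**Figure D2:**
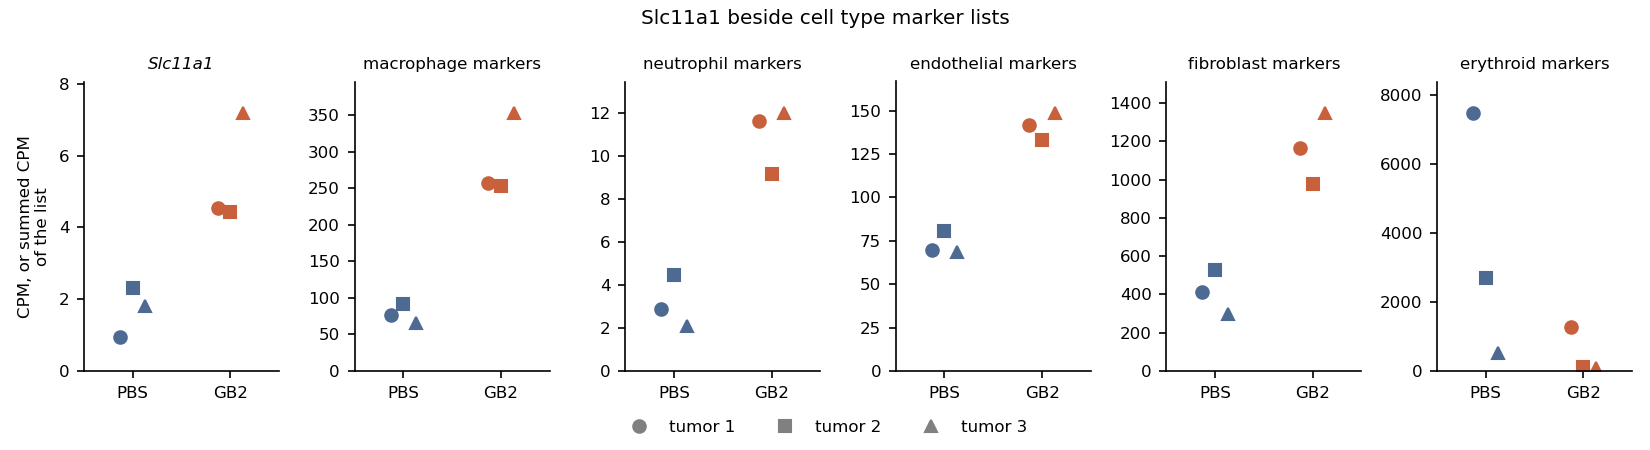
CPM of Slc11a1 (left) and summed CPM of 5 marker lists in each PBS (blue) and GB2 (orange) tumor, each panel on its own linear axis from 0. Slc11a1 and the macrophage, neutrophil, endothelial and fibroblast sums are separate between groups, while the erythroid sum overlaps, from 509 to 7479 CPM in PBS tumors and from 94.9 to 1273 CPM in GB2 tumors.

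Slc11a2, the paralog that moves iron out of endosomes in most cell types, showed no such separation (chr15:100285779-100321973). Its level was 73.7, 88.6 and 108 CPM in PBS tumors and 116, 122 and 83.0 CPM in GB2 tumors, so GB2 tumor 3 lay inside the PBS range. For Slc11a2 the log2 fold change was 0.25 (SE 0.22, 95% interval -0.27 to 0.77, edgeR adjusted p = 0.81). It ran from 0.14 without PBS tumor 1 to 0.41 without PBS tumor 3 or GB2 tumor 3, and it was 0.05 with the length trend removed. On the FPKM scale Slc11a1 stood at 0.022, 0.0434 and 0.0283 of Slc11a2 in PBS tumors and at 0.0658, 0.0613 and 0.148 of it in GB2 tumors. All 3 GB2 ratios were above all PBS ratios. On a log2(FPKM + 0.1) scale the ratio was -4.72 ± 0.36 (SD, n = 3) in PBS and -3.48 ± 0.68 (SD, n = 3) in GB2 tumors, a difference of 1.24 (exact permutation p = 0.1, the smallest possible). The pseudocount shrinks the difference for a gene as scarce as Slc11a1, which was 0.45 with a pseudocount of 1 and 1.49 with none.

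Hmox1 encodes heme oxygenase, which opens the heme ring and frees its iron (chr8:75820249-75827217). It stood at 143, 132 and 132 CPM in PBS tumors and 109, 97.1 and 98.4 CPM in GB2 tumors. The tumors of each group lay close together, with SDs of 6.41 and 6.63 CPM, and the groups did not overlap. The log2 fold change was -0.42 (SE 0.15, unadjusted p = 0.0239, edgeR adjusted p = 0.615), or 0.746 of the PBS level with a 95% interval of 0.586 to 0.951. The unadjusted p passed 0.05 by little. It was 0.0509 without PBS tumor 2, 0.0557, 0.0952 and 0.0769 without GB2 tumors 1, 2 and 3, and 0.0634 when a trend of each tumor with transcript length was removed. The log2 fold change itself stayed between -0.47 and -0.37 when any tumor was left out. Hmox1 was thus lower in the GB2 group, in which the macrophage marker sum was higher. By log2 fold change 7 of 7 erythroid markers were lower in that group as well, none at 0 in every tumor. At an unadjusted p under 0.05 there were 5 of them, where 2.24% of all tested genes were lower at that p. Only 1 of these 7 markers did not overlap between the groups, where 6.68% of all tested genes were lower without overlap. The part of red blood cell RNA in the Hmox1 values was not tested.

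Ferritin was the most abundant product of the set. Ftl1, the light chain, had a mean of 1473 FPKM and rank 14 among all genes, and Fth1, the heavy chain that carries the ferroxidase activity, had 524 FPKM and rank 69. Together they took 0.319% to 0.615% of all counts of a tumor. Ftl1 (chr7:45107368-45109308) was measured at 3896, 2104 and 1409 CPM in PBS tumors and 1653, 1615 and 1940 CPM in GB2 tumors. The 3 GB2 values lay within the PBS range, whose top was PBS tumor 1. The log2 fold change was -0.51 (SE 0.36, 95% interval -1.34 to 0.33, edgeR adjusted p = 0.786), and it was -0.01 without PBS tumor 1. Without PBS tumor 3, the lowest of its group, it was -0.78 with an unadjusted p of 0.0333 and an adjusted p of 0.464.

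Fth1 (chr19:9957962-9962456) shared the order of Ftl1 in the PBS tumors but not in the GB2 tumors, at 2837, 1877 and 1727 CPM in PBS tumors and 1641, 2017 and 1450 CPM in GB2 tumors. The groups overlapped, with GB2 tumor 2 above both PBS tumors 2 and 3. Its difference on the log2 scale was -0.33 (SE 0.25, 95% interval -0.92 to 0.25, edgeR adjusted p = 0.794) and -0.07 without PBS tumor 1. The ratio of Fth1 to Ftl1, on the FPKM scale, was 0.281, 0.345 and 0.473 in PBS tumors and 0.384, 0.483 and 0.289 in GB2 tumors. Its log2 means differed by 0.07 (exact permutation p = 0.7), less than the SDs of 0.38 and 0.37 within the groups. Fth1, Ftl1 and Slc11a2 overlap genes on the opposite strand in GENCODE M21, and whether the counting used strand is not given in the sources used here.

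Ferritin and Gpx4 have near-identical processed copies elsewhere in the genome, and reads can be split between a gene and its copies. Gpx4-ps2 stood at 85.8, 32.9 and 45.6 CPM in PBS tumors and 34.2, 31.7 and 34.8 CPM in GB2 tumors, and its PBS tumors had the order of Gpx4, with PBS tumor 1 highest and PBS tumor 2 lowest. Ftl1-ps1 ran from 16.8 to 60.5 CPM and Ftl2-ps from 4 to 10.8 CPM, both highest in PBS tumor 1 and lowest in PBS tumor 3, as Ftl1 was. Fth-ps2, Ftl1-ps2 and Gpx4-ps1 stayed at or under 0.389 CPM. How the counts were divided among copies is not given in the sources used here, so the levels of Ftl1 and Gpx4 are uncertain by the share of these copies.

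Iron entry and exit were not separated between the groups. Tfrc (chr16:32427738-32451612) stood at 595, 469 and 612 CPM in PBS tumors and 596, 642 and 532 CPM in GB2 tumors. These values overlapped almost fully, with a log2 fold change of 0.08 (SE 0.19, edgeR adjusted p = 0.922). The 95% interval of -0.35 to 0.51 leaves room for only moderate changes in either direction. The estimate was -0.03 without PBS tumor 2 and -0.16 with the length trend removed, so its sign is not settled.

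Ferroportin varied far more between tumors. Slc40a1 (chr1:45947228-45965683) was at 14.4, 15.1 and 35.1 CPM in PBS tumors and 46.3, 31.4 and 13.6 CPM in GB2 tumors. The highest and the lowest of the 6 values were both GB2 tumors. The estimated log2 difference was 0.50 (SE 0.51, 95% interval -0.68 to 1.68, edgeR adjusted p = 0.832), and it moved from 0.07 without GB2 tumor 1 to 1.05 without PBS tumor 3. The ratio of Slc40a1 to Tfrc, export over uptake on the FPKM scale, was 0.0165, 0.0221 and 0.0394 in PBS tumors and 0.0534, 0.0335 and 0.0176 in GB2 tumors. The log2 difference of 0.36 (exact permutation p = 0.6) was smaller than the SDs of 0.60 and 0.77.

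**Figure D3:**
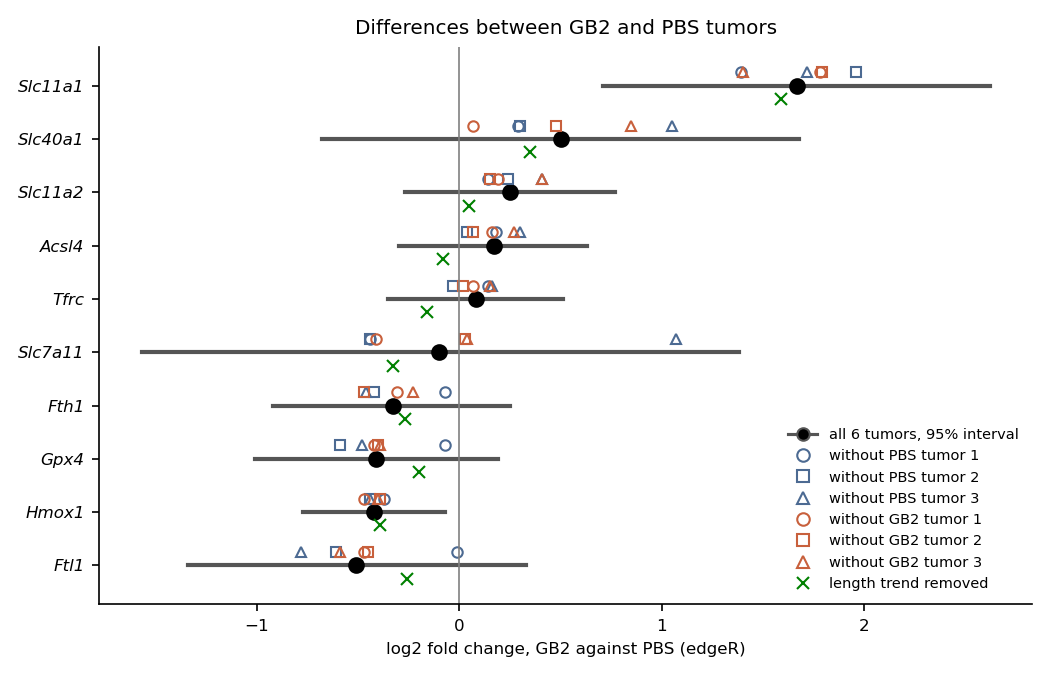
Log2 fold change of each gene, GB2 against PBS, from edgeR on all 6 tumors (black point) with its 95% interval (bar), beside the estimates without each tumor (open symbols) and with the length trend removed (green cross). Only the intervals of Slc11a1 (0.71 to 2.62) and Hmox1 (-0.77 to -0.07) leave out 0, and the estimates of Ftl1, Fth1 and Gpx4 lie near 0 without PBS tumor 1.

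The 3 core ferroptosis genes gave no separation either. Gpx4 (chr10:79883000-79892273), the peroxidase that detoxifies lipid peroxides, was at 389, 199 and 246 CPM in PBS tumors and 214, 211 and 204 CPM in GB2 tumors. The GB2 tumors were close to each other and inside the PBS range, and PBS tumor 1 was the highest of the 6. For Gpx4 the log2 fold change was -0.41 (SE 0.26, 95% interval -1.01 to 0.19, edgeR adjusted p = 0.767), and it was -0.07 without PBS tumor 1. Without PBS tumor 2 it was -0.59, with an unadjusted p of 0.0492 and an adjusted p of 0.67.

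Acsl4 (chrX:141100989-141173531), the acyl-CoA synthetase that favours arachidonic acid, was at 45.7, 37.4 and 53.7 CPM in PBS tumors and 51.8, 57.9 and 43.7 CPM in GB2 tumors. The groups overlapped, and the log2 fold change was 0.17 (SE 0.20, 95% interval -0.30 to 0.63, edgeR adjusted p = 0.858). It ran from 0.04 without PBS tumor 2 to 0.3 without PBS tumor 3, and it was -0.08 with the length trend removed. The ratio of Acsl4 to Gpx4, driver over suppressor on the FPKM scale, was 0.0375, 0.06 and 0.0696 in PBS tumors and 0.0773, 0.0877 and 0.0682 in GB2 tumors. The lowest GB2 ratio fell just under the highest PBS ratio, and the log2 difference was 0.52 (exact permutation p = 0.2). Without PBS tumor 1 the difference was 0.26, and it ran from 0.26 to 0.70 with a tumor left out.

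Slc7a11 (chr3:49846975-50398063), the cystine importer, had the largest SE of the 10 members. Within the GB2 group Slc40a1 varied more, with an SD of 16.4 on a mean of 30.5 CPM against 2.65 on 7.87 CPM. Slc7a11 was at 3.62, 3.89 and 17.8 CPM in PBS tumors and 10.9, 6.42 and 6.27 CPM in GB2 tumors. All 3 GB2 tumors lay above PBS tumors 1 and 2 and below PBS tumor 3. The log2 fold change was -0.10 (SE 0.63, 95% interval -1.57 to 1.38, edgeR adjusted p = 0.971) with all tumors and 1.07 without PBS tumor 3 (unadjusted p = 0.0205, adjusted p = 0.455). It was also above 0 without GB2 tumor 2 (0.03) or GB2 tumor 3 (0.04), so the sign of the Slc7a11 difference is not settled.

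Slc7a11 is a target of ATF4, the transcription factor of the amino acid stress response, which binds the letters TGATGNAA. Promoters from RefSeq (GRCm38.p6, 250 bases before to 50 after the gene start) were present for 7 of the 10 members, and these letters were searched on both strands. They occur in 1304 of 32851 promoters (3.97%), and 23 promoters (0.07%) hold 2 or more. Slc7a11 was the 1 member with a match and had 2, at positions -66 and -47 from its start, and of 84 listed genes with a promoter the only other match was Chac1, which encodes a glutathione-degrading enzyme that ATF4 also induces. The letters TGACNNNGC, bound by NRF2, were searched in the same way and occur in 12.4% of promoters and in 0 of the 7 members. Hmox1, Slc40a1 and Slc11a2 had no promoter to search, and 7 promoters are too few to tell 0 from 12.4%. Sites outside this window were not searched. With 2 of 84, the listed genes held TGATGNAA no more often than the 3.97% of all promoters. The matches are shown because Slc7a11 and Chac1 both have one, with the motif in capitals on the strand of the gene. The second match in Slc7a11 and the match in Chac1 read on the opposite strand. The windows are chr3:50443647-50443685 on the minus strand and chr2:119351043-119351062 on the plus strand.
Slc7a11: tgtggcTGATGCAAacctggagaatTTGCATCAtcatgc
Chac1: ctgccgTTGCATCActcctg
Chac1, picked after its values were seen, stood at 5.21, 13.8 and 38.7 CPM in PBS tumors and 17.9, 20.6 and 22.9 CPM in GB2 tumors. It was highest in PBS tumor 3 and lowest in PBS tumor 1, as Slc7a11 was, while in the GB2 tumors Chac1 had the reverse order of Slc7a11, and its log2 fold change was 0.09. The match of letters is a description of the promoters, and ATF4 binding was not measured.

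PBS tumor 1 held the highest value of 4 members, Fth1, Ftl1, Hmox1 and Gpx4, and the lowest value of 3, Slc11a1, Slc11a2 and Slc7a11. In that tumor, short transcripts as a class were high. Relative to the other PBS tumors, the median log2 CPM of genes with a longest coding transcript of up to 1000 bases was 0.72 higher, that of the class over 1000 and up to 1500 bases was 0.48 higher, and that of genes over 6000 bases was -0.29. In GB2 tumors the same medians stayed between -0.07 and 0.11. The transcripts of Ftl1 (968 bases), Gpx4 (995 bases) and Fth1 (1494 bases) are short, and in PBS tumor 1 they exceeded the other PBS tumors by 1.18, 0.81 and 0.66 on the log2 scale. Not every member followed its length class, as Slc11a1 (2315 bases) stood at -1.10 in that tumor and its class at 0.17. With the length trend removed, the log2 fold change was -0.26 for Ftl1, -0.20 for Gpx4, -0.27 for Fth1, -0.39 for Hmox1 and 1.59 for Slc11a1. PBS tumor 1 also had the highest erythroid marker sum, 7479 CPM against 2696 and 509 CPM in PBS tumors 2 and 3, in the same order as Ftl1. In GB2 tumors the erythroid sums were 1273, 116 and 94.9 CPM, and Ftl1 was highest where the sum was lowest, in GB2 tumor 3. The part of erythroid RNA in the ferritin values was not tested.

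**Figure D4:**
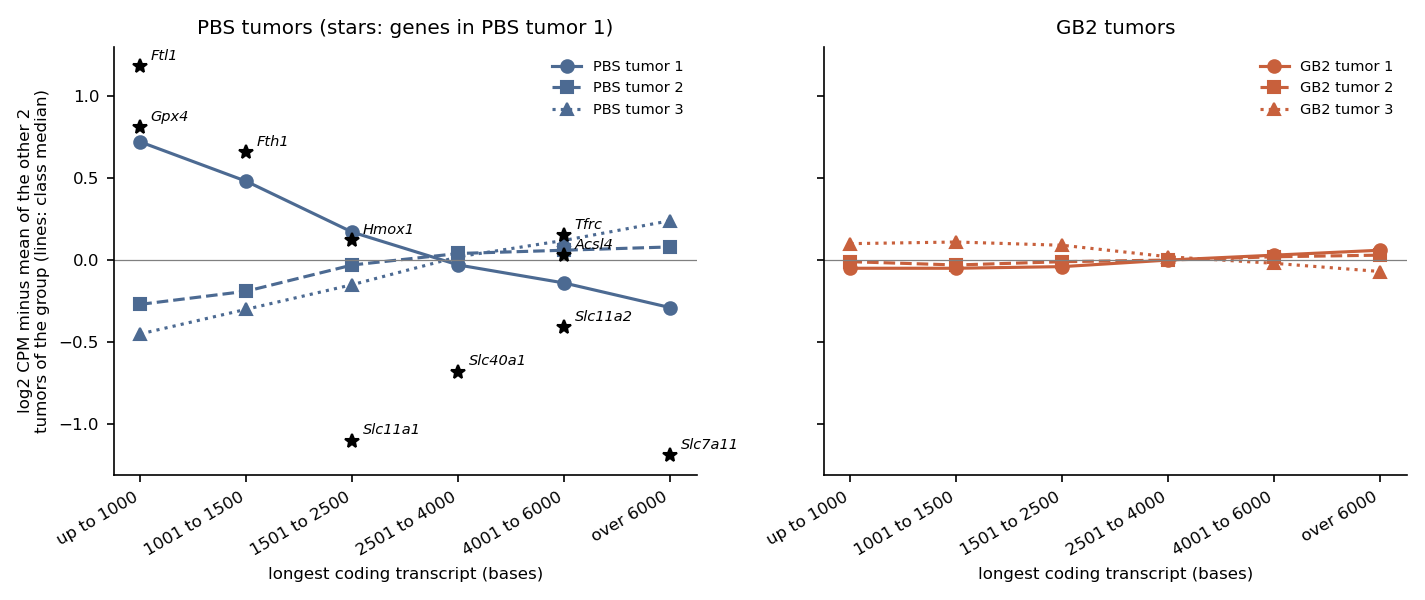
Median log2 CPM of tested coding genes in each transcript length class (longest coding transcript, bases) minus the mean of the other 2 tumors of the group, for PBS (left) and GB2 (right) tumors, with the 10 genes in PBS tumor 1 as stars. The line of PBS tumor 1 runs from 0.72 for the shortest class to -0.29 for the longest, and Ftl1, Gpx4 and Fth1 sit at its high end.

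The surrounding pathway genes were described from lists. Of 85 tested distinct genes in 9 lists of iron, heme and ferroptosis biology, 3 were higher and 1 was lower at an unadjusted p under 0.05, where 4.69% of all tested genes were higher and 2.24% lower, so the lists held no more such genes than the background. Their median log2 fold change was 0.09 against -0.02 for all tested genes. The count of 4 genes ran from 2, without GB2 tumor 1 or GB2 tumor 2, to 6, without PBS tumor 1 or PBS tumor 3. For iron uptake and intracellular transport, 10 of 15 genes were higher and 1 passed that p. This was Slc39a8, a zinc and iron importer, with counts of 10, 9 and 14 in PBS tumors and 51, 36 and 47 in GB2 tumors (log2 fold change 1.68, unadjusted p = 0.0133), which are low counts in each PBS tumor. Without GB2 tumor 1 its edgeR p was over 0.05. Transferrin itself, Trf, had a log2 fold change of -0.07.

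In the list of storage, release and oxidation for export, 0 of 4 tested genes passed. Hamp, which encodes the iron hormone hepcidin, had the largest estimate at 0.90, with an SE of 1.34. Its counts were low except in GB2 tumor 2, at 26, 42 and 43 in PBS tumors and 0, 219 and 38 in GB2 tumors. Cp, the ferroxidase ceruloplasmin, had -0.43, and it was -0.1 without PBS tumor 2. In iron sensing and regulation, 0 of 9 passed, with Hjv, a hepcidin regulator, at 0.75 and Tmprss6, a protease that restrains hepcidin, at -0.57. The Tmprss6 estimate ran from -1.22 without GB2 tumor 2 to -0.02 without GB2 tumor 1. That of Hamp ran from -1.28 without GB2 tumor 2 to 1.49 without GB2 tumor 1. The genes of the iron regulatory proteins that bind the hairpins shown above, Aco1 and Ireb2, were at 0.19 and 0.04.

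Heme synthesis was the list with the lowest median, -0.30, with 7 of 9 genes lower and 1 at an unadjusted p under 0.05. This was Urod, a decarboxylase of the pathway, at 57.7, 34.5 and 32.5 CPM in PBS tumors and 27.4, 30.0 and 25.3 CPM in GB2 tumors (log2 fold change -0.59, unadjusted p = 0.0495, edgeR adjusted p = 0.717). Without PBS tumor 1 the log2 fold change of Urod was -0.27 (unadjusted p = 0.0919), and the p was also over 0.05 without any GB2 tumor. Alas2, the first enzyme of heme synthesis in red cell precursors and also an erythroid marker here, had the largest estimate, -2.14, with an SE of 1.15. The Alas2 estimate ran from -4.53 without GB2 tumor 1 to -1.53 without PBS tumor 1. In heme uptake, breakdown and transport, 5 of 12 genes were higher and 7 lower, and 1 passed. This was Cd163, the hemoglobin-haptoglobin receptor of macrophages, at 0.795, 0.894 and 0.665 CPM in PBS tumors and 2.52, 2.00 and 3.46 CPM in GB2 tumors (log2 fold change 1.76, unadjusted p = 0.00131, edgeR adjusted p = 0.234), and it ran from 1.53 to 1.93 with a tumor left out. It moved in the same direction as the macrophage markers, a list that does not hold it.

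Among genes of cystine and glutathione metabolism 0 of 11 passed, with Cbs, of the transsulfuration route, at -0.58 and Ggt1, which cleaves extracellular glutathione, at 0.55. With a tumor left out, Cbs ran from -0.89 to -0.33 and Ggt1 from 0.15 to 0.82. Among ferroptosis suppressors other than Gpx4 0 of 8 passed, with Aifm2, which encodes FSP1, at 0.34 and Prdx6 at -0.30. Aifm2 ran from 0.12 without GB2 tumor 2 to 0.53 without GB2 tumor 3, and Prdx6 was 0.11 without PBS tumor 1. Among lipid peroxidation and ferroptosis drivers 1 of 7 passed. This was Ptgs2, the inducible cyclooxygenase often used as a marker of ferroptosis and also an inflammatory gene, at 1.67, 0.738 and 0.439 CPM in PBS tumors and 2.62, 2.97 and 1.89 CPM in GB2 tumors (log2 fold change 1.39, unadjusted p = 0.0305). All GB2 values of Ptgs2 were above the PBS values, but its p was under 0.05 in only 2 of the 6 fits with a tumor left out, those without PBS tumor 1 and without GB2 tumor 3. Among regulators and targets of NRF2, the transcription factor of the oxidative stress response, 0 of 13 passed. The estimates were 0.61 for Txnrd1, a thioredoxin reductase, and 0.53 for Nfe2l2, which encodes NRF2. With a tumor left out, Txnrd1 ran from 0.35 to 0.79 and Nfe2l2 from 0.41 to 0.7.

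The relatives of Gpx4 and Acsl4 were compared with them. In the glutathione peroxidase family, 2 of 5 tested genes were higher at an unadjusted p under 0.05, against 4.69% of all tested genes, and Gpx5 and Gpx6 were at 0 in every tumor. Gpx3, the secreted peroxidase, was at 6.53, 7.12 and 5.22 CPM in PBS tumors and 19.8, 14.1 and 25.7 CPM in GB2 tumors, with no overlap (log2 fold change 1.66, SE 0.28, unadjusted p = 0.000475, edgeR adjusted p = 0.19). Gpx7, a peroxidase of the endoplasmic reticulum, had a log2 fold change of 1.15 (unadjusted p = 0.0419), with p over 0.05 without PBS tumors 1 or 3 or GB2 tumors 1 or 3. The fibroblast, macrophage and endothelial markers given above were higher in the same tumors, and their part in the Gpx3 and Gpx7 differences was not tested. In the long-chain acyl-CoA synthetase family 0 of 4 tested genes passed, with estimates of -0.16 for Acsl5 and -0.13 for Acsl3, which were 0.15 and 0.18 without PBS tumor 1.

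The table also assigns 39 genes to the KEGG ferroptosis pathway, of which 38 were tested. Of these, 19 were higher and 19 lower, with a median log2 fold change of 0.02. At an unadjusted p under 0.05, 2 were higher, Slc39a8 and Cybb, and 2 were lower, Hmox1 and Sat2, where the shares over all tested genes were 4.69% and 2.24%. Cybb, the NADPH oxidase subunit of phagocytes, had a log2 fold change of 2.30, and it was at least 1.9 with any tumor left out. Sat2, an acetyltransferase, had -0.62, and its p was under 0.05 in 1 of the 6 fits with a tumor left out.

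**Figure D5:**
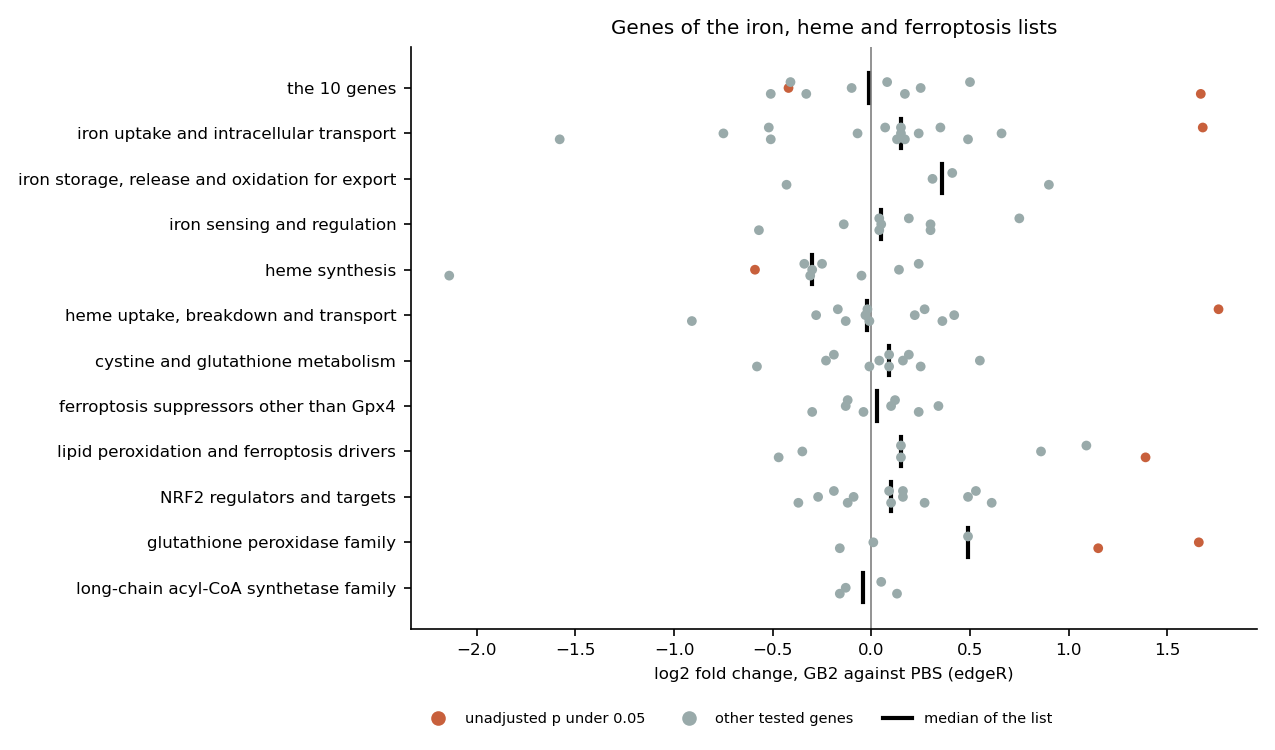
Log2 fold change, GB2 against PBS, of every tested gene of the 10-gene set and of 9 pathway and 2 family lists, with genes at an unadjusted p under 0.05 in orange, others in grey and the list median as a black bar. Most genes lie near 0, list medians run from -0.30 (heme synthesis) to 0.49 (glutathione peroxidase family), and the orange points to the right are Slc11a1, Slc39a8, Cd163, Ptgs2, Gpx3 and Gpx7.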

How the data were processed

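RNA-seq was performed on 3 PBS and 3 GB2 tumors. The labels describe poly-A selected, strand-marked, paired-end libraries. Per gene and tumor, the table that the authors deposited holds an estimated count and an FPKM value, and the submitters' processing notes name mm10, cutadapt 1.9, HISAT2 2.2.1, StringTie 2.1.6, DESeq2 and edgeR, without their roles. The deposited estimated counts are whole numbers, not scaled between tumors, in which 7017 values of 4 stand against 2984 of 3 and 2017 of 5. The FPKM values were divided by transcript length and library total by the authors. Of 31999 gene IDs shared with GENCODE M21 (GRCm38), 641 (2.0%) have the same start and end, so gene positions are those of the table, with its build not settled, and sequences are from GRCm38.

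The members and lists were chosen with earlier results of these data known. In R 4.3.3, edgeR 4.0.16 (filterByExpr with a minimum count of 10, TMM, glmQLFit and glmQLFTest) compared GB2 with PBS, with Benjamini-Hochberg adjustment over 19602 genes. Standard errors were derived from the test statistic. Ratios of members used log2(FPKM + 0.1) and an exact two-sided permutation test. Named genes were the 10 members, list genes at an unadjusted p under 0.05 (up to 5 a list, otherwise the 2 largest estimates), and copies of ferritin and Gpx4. Other genes (Aco1, Ireb2, Trf, Alas2, Chac1, Cybb, Sat2) were named after their values were seen. Alternatives were DESeq2 1.42.0, limma 3.58.1 on log2(FPKM + 1), other scalings, counts divided by 4, no filter, a replicate block and each tumor left out. Knowledge of the data led to 2 further alternatives, DESeq2 on counts divided by 4 and the removal of a length trend, which were added later. Nothing in the labels says how many mice or batches the tumors came from, so p-values measure the spread between these tumors, and no batch could be tested.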

Additional observations from a re-analysis of the deposited data

How the results depend on the processing

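The biological coefficient of variation between tumors of a group was 40.5% across genes. Slc11a1 stayed higher in every setting run, with log2 fold changes of 0.75 (limma on log2(FPKM + 1)) to 1.72, or 1.39 to 1.96 with a tumor left out, and it was called only by DESeq2, at 1.68, and by DESeq2 on counts divided by 4, at 1.66. DESeq2 called 380 genes and 1 member, and DESeq2 on counts divided by 4 called 248 genes and 1 member, against 0 with edgeR. At an unadjusted p under 0.05 edgeR had 1360 of 19602 genes (6.94%) and DESeq2 1917 of 31805 (6.03%). The cause of the difference between the tools was not tested. Members at an unadjusted p under 0.05 numbered 1 with the length trend removed and 1 to 4 with a tumor left out, since Hmox1 lost that p without PBS tumor 2 or any GB2 tumor, Gpx4 gained it without PBS tumor 2, and Ftl1 and Slc7a11 gained it without PBS tumor 3. The share of all tested genes at that p moved as well, to 8.54% with the length trend removed, 10.6% without PBS tumor 3, where 4 members passed, and 4.53% to 4.80% without a GB2 tumor, against 6.94% with all tumors. Pathway list genes at that p numbered 2 to 6 with a tumor left out.

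The deviations of same-numbered tumors from their group means correlated at 0.0313, 0.154 and -0.245. Those of different-numbered tumors ran from -0.258 to 0.239. Whether the tumor numbers pair the tumors cannot be settled this way, since each deviation was taken from the mean of a small group. In the fit with a replicate block 1 member was at an unadjusted p under 0.05, since the p of Hmox1 was 0.0796, and 957 genes passed that p in place of 1360. The block gave 0.31 for Slc7a11.

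Slc7a11 also turned positive with limma, at 0.03 with a pseudocount of 1, 0.23 with a pseudocount of 0.1 and 0.03 without a filter, and ran from -0.44 to 1.07 with a tumor left out. Tfrc turned to -0.03 without PBS tumor 2 (its range with a tumor left out was -0.03 to 0.16) and to -0.16 with the length trend removed, and Acsl4 turned to -0.08 with that trend removed. The difference between groups (GB2 minus PBS) in the log2 ratio of Fth1 to Ftl1 ran from -0.11 to 0.27 with a tumor left out, and that of Slc40a1 to Tfrc from -0.01 to 0.76. The cause of these reversals was not tested.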
